A study of Mus musculus with 8 samples.

Results

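A set of 9 genes that mark cardiac fibroblasts and the epicardium, the mesothelial sheet that covers the heart, was followed in whole-heart RNA-seq of mice lacking the estrogen-related receptors ERRα and ERRγ. The genes are a list of lineage markers matched by gene identifier to the mouse symbol. They are 9 of the 18656 genes listed in any library. Tcf21, Pdgfra, Ddr2, Thy1 and Meox1 stand for fibroblasts (5 genes), and Wt1, Tbx18, Upk3b and Msln for epicardium and mesothelium (4 genes). All 9 had reads in all 8 libraries, with a lowest value of 134 reads, and all 9 passed the filter on low counts.

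The hearts came from 16-day-old C57BL/6 littermates, with 2 libraries per genotype, and each library was made from RNA pooled from several hearts (the sources differ, with 3 hearts per pool in one and 2 to 3 in another). αKOγKO hearts lacked ERRα in every cell and had a floxed ERRγ gene deleted by Myh6-Cre, which is active in cardiomyocytes. αHetγKO hearts had the same cardiomyocyte deletion of ERRγ with 1 copy of ERRα, αKOγWT hearts lacked ERRα and kept ERRγ, and αHetγWT hearts kept ERRγ and were heterozygous for ERRα, so no genotype has both ERRα copies. Because the ERRγ deletion was driven in cardiomyocytes, the fibroblasts and epicardial cells of a γKO heart keep an intact ERRγ gene, whereas those of an αKO heart lack ERRα. The Cre status of the γWT hearts is not given in the sources used here.

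Cardiac fibroblasts descend largely from the embryonic epicardium: epicardial cells that express Wt1, Tbx18 and Tcf21 undergo an epithelial-to-mesenchymal transition, move into the myocardium and become fibroblasts and mural cells. Resident fibroblasts carry the receptor PDGFRα and the collagen receptor DDR2, and when activated they lay down matrix and can become contractile myofibroblasts. The mesothelial layer that stays on the surface keeps UPK3B and mesothelin.

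The libraries held 28.2 to 36.8 M uniquely assigned reads. Esrra, the gene of ERRα, had 84 to 136 reads in the 4 αKO libraries and 2962 to 3483 in the 4 αHet libraries, which matches the labels. Esrrg, counted over the whole gene, was higher in αKOγKO than in αHetγWT hearts by 1.18 ± 0.09 on the log2 scale and does not check the γKO labels. The 2 αKOγKO libraries stood apart from each other: replicate 1 had 7142 reads of Xist, against 6 to 14 in the other 7 libraries, and replicate 2 had 15676 reads of Fos and 12840 of Fosb, against 484 and 115 in replicate 1. Cardiomyocyte markers summed to 34200 to 39700 RPKM (reads per length of the gene and per total of the library) in αKOγKO hearts and 46200 to 52100 RPKM in the other 6 libraries.

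The genes lie on 7 chromosomes of the mm10 build. Tcf21 is at chr10:22817263-22820143 on the minus strand, Meox1 at chr11:101877510-101894354 on the minus strand, Pdgfra at chr5:75151322-75198206 on the plus strand, Ddr2 at chr1:169972307-170110836 on the minus strand and Thy1 at chr9:44043384-44048579 on the plus strand. Wt1 is at chr2:105126529-105173614 on the plus strand, Tbx18 at chr9:87702800-87731260 on the minus strand, Upk3b at chr5:136038496-136044993 on the plus strand and Msln at chr17:25748613-25754378 on the minus strand. In the GENCODE annotation, genes on the opposite strand share 970 exonic bases with Tbx18, up to 456 with Pdgfra and 90 with Ddr2, and whether reads were counted by strand is not stated.

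Promoters are shown because 2 of the 5 fibroblast genes followed here passed the test in αKOγKO hearts and the other 3 did not. The RefSeq table (GRCm38.p6) holds no promoter for Meox1, Thy1, Wt1 and Msln, so Meox1, 1 of the 2 that passed, was not searched. It holds a promoter for 5 of the 9 genes: Tcf21, Pdgfra, Ddr2, Tbx18 and Upk3b. The 250 bases before the start site are given 5′ to 3′ on the gene's strand for 3 of them: Tcf21 (chr10:22820144-22820393, minus), which was higher in αKOγKO hearts, Pdgfra (chr5:75152001-75152250, plus), which did not pass, and the mesothelial gene Upk3b (chr5:136038246-136038495, plus). For Pdgfra the start site used lies inside the span of the gene given above. The same holds for Ddr2, whose promoter was searched and is not shown. Capitals mark the 2 motif matches found.
Tcf21: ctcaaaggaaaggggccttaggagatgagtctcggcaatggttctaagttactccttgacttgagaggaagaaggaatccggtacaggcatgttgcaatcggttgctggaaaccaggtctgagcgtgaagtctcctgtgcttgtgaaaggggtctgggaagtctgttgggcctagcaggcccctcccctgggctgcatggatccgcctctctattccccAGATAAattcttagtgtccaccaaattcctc
Pdgfra: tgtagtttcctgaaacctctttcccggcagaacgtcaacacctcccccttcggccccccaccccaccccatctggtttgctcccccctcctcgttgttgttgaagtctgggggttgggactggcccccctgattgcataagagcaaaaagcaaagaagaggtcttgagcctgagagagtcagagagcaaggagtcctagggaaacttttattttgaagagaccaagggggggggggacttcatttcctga
Upk3b: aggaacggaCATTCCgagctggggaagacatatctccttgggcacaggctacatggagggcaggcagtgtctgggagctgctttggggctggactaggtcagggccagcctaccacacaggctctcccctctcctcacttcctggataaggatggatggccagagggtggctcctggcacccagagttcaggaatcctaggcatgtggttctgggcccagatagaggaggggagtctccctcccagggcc
The capitals in Tcf21 are AGATAA, the letters bound by GATA factors, 31 bases before the start site, and those in Upk3b are GGAATG, the letters bound by TEAD factors, read on the other strand (CATTCC) 241 bases before the start site. Matches on either strand were searched from 250 bases before to 50 bases after each start. AGATAA was in 11.2% and GGAATG in 14.7% of all 32851 promoters of the table. Neither the ERR response element TCAAGGTCA, which is in 0.423% of all promoters, nor the shorter nuclear receptor site AAGGTCA within it, which is in 4.72%, was in any of the 5 promoters. The E-box CAGCTG (16.3% of all promoters), the T-box letters AGGTGTGA (1.28%), CATTCCT (5.36%), which contains the reverse of GGAATG, and the EGR and WT1 letters GCGTGGGCG (0.612%) were also in none of the 5. These are matches of letters and do not show binding.

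The first question was how the fibroblast and epicardial genes differed in hearts that lack both receptors. In αKOγKO hearts the fibroblast transcription factors Tcf21 and Meox1 were 2.17-fold and 3.26-fold higher than in αHetγWT hearts. The fibroblast surface proteins Pdgfra, Ddr2 and Thy1 and all 4 epicardial genes did not pass the test. So 2 of the 9 genes were higher and 0 lower at an edgeR adjusted p under 0.05, where 42.2% of the 15076 tested genes passed in either direction (20.7% higher and 21.5% lower). The share of the 9 genes that passed was 22.2%. At an unadjusted p under 0.05 the count was 3 of 9, which adds Tbx18, and DESeq2 called 2 higher and 1 lower (Msln). In whole-heart RNA, more cells of a type and more RNA of a gene per cell cannot be told apart.

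**Figure D1:**
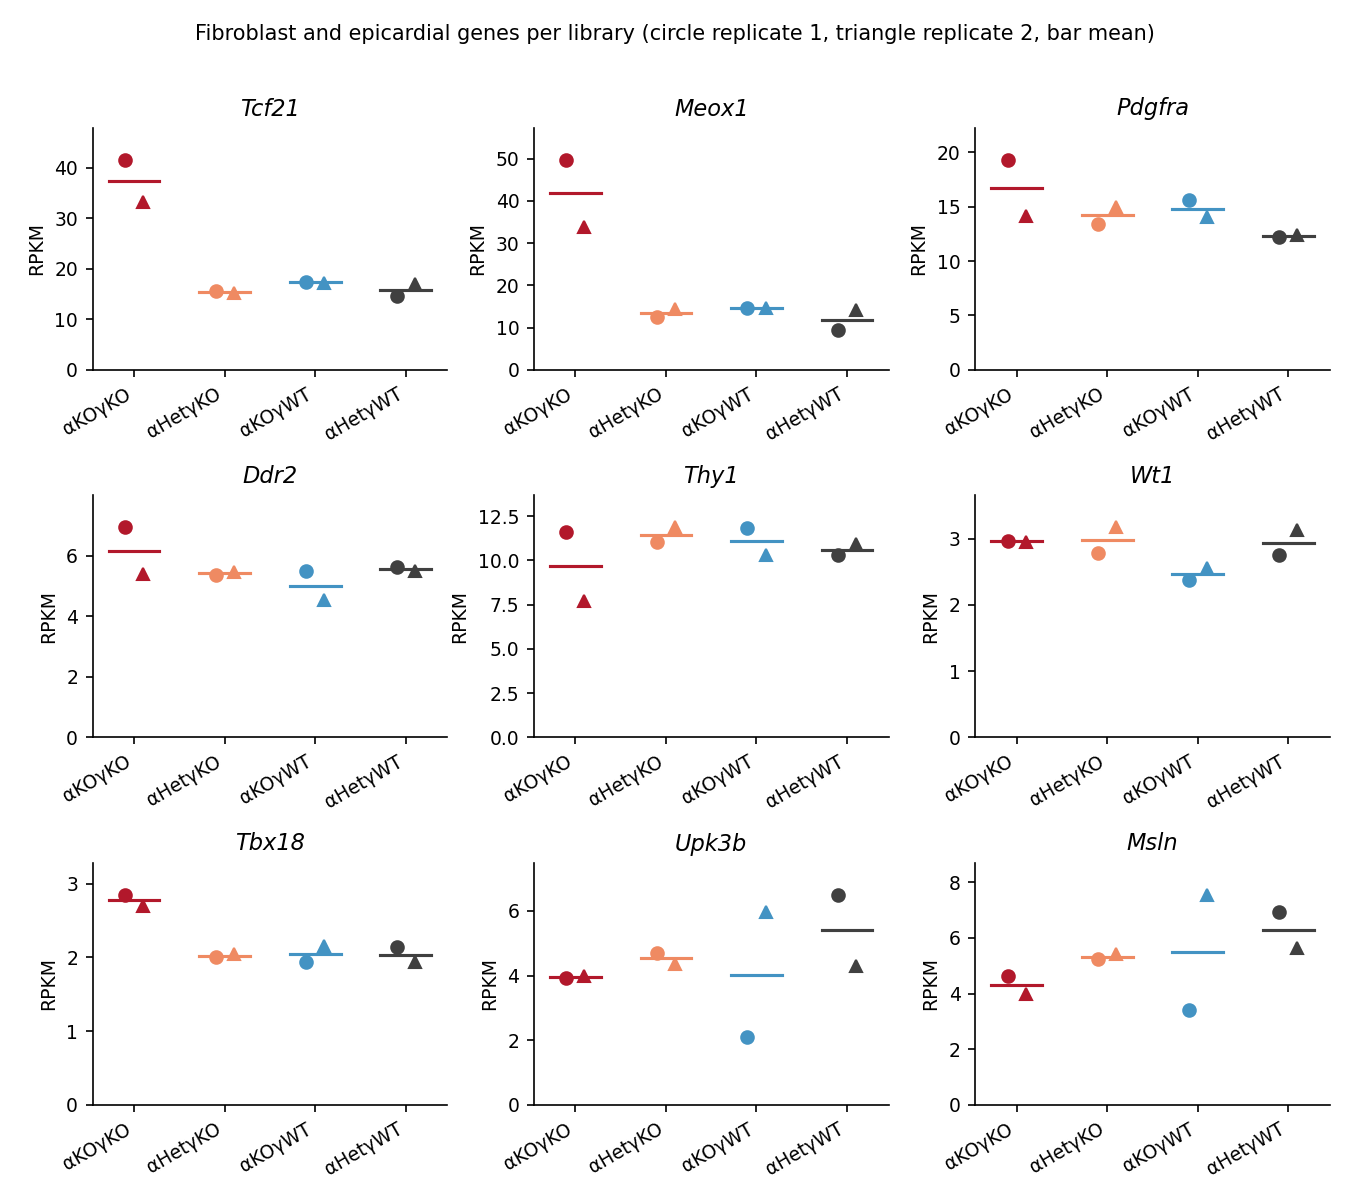
RPKM of the 9 genes (y axis, starting at 0) in each library, by genotype (x axis); circles are replicate 1, triangles replicate 2 and bars the mean of the 2. Tcf21, Meox1 and Tbx18 are the genes whose 2 αKOγKO libraries both lie above the other 6, as was so for 34.8% of all tested genes. Upk3b and Msln are lowest in αKOγWT replicate 1.

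Tcf21 encodes a basic helix-loop-helix factor that epicardial cells need to form fibroblasts, and resident fibroblasts keep it. It had 1900 and 1516 reads (41.6 and 33.3 RPKM) in αKOγKO hearts, 548 and 638 reads (15.7 and 15.3 RPKM) in αHetγKO hearts, 676 and 658 reads (17.4 and 17.3 RPKM) in αKOγWT hearts, and 530 and 646 reads (14.7 and 17.1 RPKM) in αHetγWT hearts. Both αKOγKO libraries were above the other 6, which spanned only 14.7 to 17.4 RPKM. The log2 difference between αKOγKO and αHetγWT was 1.12 ± 0.13 (SE; 95% confidence interval 0.82 to 1.41; edgeR adjusted p = 0.000234).

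Meox1 encodes a homeodomain factor of the somites, which in mice also controls the activation of cardiac fibroblasts. It had 4098 and 2782 reads (49.8 and 33.9 RPKM) in αKOγKO hearts, 793 and 1081 reads (12.6 and 14.4 RPKM) in αHetγKO hearts, 1021 and 1004 reads (14.6 RPKM in each) in αKOγWT hearts, and 619 and 962 reads (9.50 and 14.1 RPKM) in αHetγWT hearts. The αKOγKO libraries again stood above all others, and the 2 αHetγWT libraries differed from each other more than those of αKOγWT or αHetγKO. Over αHetγWT it was higher in αKOγKO hearts by 1.70 ± 0.22 on the log2 scale (95% confidence interval 1.20 to 2.20; edgeR adjusted p = 0.000401). Ordered from the highest log2 difference down, Meox1 ranked 530 and Tcf21 1088 of the 15076 tested genes. Tcf21 and Meox1 passed in all 18 alternative settings of this comparison, with log2 differences of 0.93 to 1.27 and 1.38 to 2.03.

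Pdgfra encodes the PDGF receptor of fibroblasts and had the most reads of the 9 genes in every genotype. Its level was 19.3 and 14.1 RPKM in αKOγKO hearts, 13.4 and 15 RPKM in αHetγKO hearts, 15.6 and 14.0 RPKM in αKOγWT hearts, and 12.2 and 12.4 RPKM in αHetγWT hearts. αKOγKO replicate 1 was above every other library and replicate 2 lay among them. The log2 difference between αKOγKO and αHetγWT was 0.32 ± 0.14 (95% confidence interval 0.00 to 0.64; edgeR adjusted p = 0.103). Without αKOγKO replicate 2 it was 0.53 and passed (edgeR adjusted p = 0.000794), and without αKOγKO replicate 1 it was 0.06 and did not.

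Ddr2 encodes a receptor tyrosine kinase activated by fibrillar collagen. Its level was 6.95 and 5.40 RPKM in αKOγKO hearts, 5.37 and 5.47 RPKM in αHetγKO hearts, 5.49 and 4.53 RPKM in αKOγWT hearts, and 5.63 and 5.50 RPKM in αHetγWT hearts, so the groups overlapped. In the edgeR fit αKOγKO differed from αHetγWT by 0.03 ± 0.13 on the log2 scale (95% confidence interval -0.27 to 0.33; edgeR adjusted p = 0.884).

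Thy1 encodes a glycoprotein of the cell surface that is carried by fibroblasts and also by T cells and neurons. Its level was 11.6 and 7.73 RPKM in αKOγKO hearts, 11.0 and 11.9 RPKM in αHetγKO hearts, 11.9 and 10.3 RPKM in αKOγWT hearts, and 10.3 and 10.9 RPKM in αHetγWT hearts. αKOγKO replicate 2 was the lowest of all 8 libraries, and replicate 1 lay inside the range of the rest. The log2 difference between αKOγKO and αHetγWT was -0.26 ± 0.18 (95% confidence interval -0.67 to 0.16; edgeR adjusted p = 0.29). Without αKOγKO replicate 1 it was -0.59 (edgeR adjusted p = 0.00445), and without αKOγKO replicate 2 it was 0.01, so the call rests on which αKOγKO library is kept. The 11 T cell and thymocyte markers listed beside Thy1 summed to 1.62 to 1.76 RPKM in αKOγKO hearts and 1.93 to 2.25 RPKM in αHetγWT hearts. Of these, 0 of the 5 tested passed, where 42.2% of all tested genes passed. Of 7 tested neuron markers 2 were higher in αKOγKO hearts and 0 lower, where 20.7% of all tested genes were higher and 21.5% lower. The neuron markers summed to 8.88 and 14.3 RPKM in αKOγKO replicates 1 and 2 and to 8.39 to 9.55 RPKM in αHetγWT hearts. The part of these cells in the Thy1 level was not tested.

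Among the epicardial genes the difference was largest for the mesothelial surface genes and did not pass for any of the 4. Msln encodes mesothelin, a surface protein of mesothelium. Its level was 4.63 and 4.00 RPKM in αKOγKO hearts, 5.24 and 5.42 RPKM in αHetγKO hearts, 3.40 and 7.55 RPKM in αKOγWT hearts, and 6.94 and 5.63 RPKM in αHetγWT hearts. Both αKOγKO libraries were below both αHetγWT libraries, by -0.67 ± 0.31 on the log2 scale (95% confidence interval -1.38 to 0.05; edgeR adjusted p = 0.121). The spread that enters this test comes mostly from the αKOγWT pair. Without αKOγWT replicate 1 the difference was -0.66 (edgeR adjusted p = 0.00891), without αKOγWT replicate 2 it was -0.66 (edgeR adjusted p = 0.0099), and Msln then counted as lower, as it did with DESeq2 (-0.66, adjusted p = 0.0417) and with only the 4 libraries of these genotypes (-0.66, edgeR adjusted p = 0.0285).

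Upk3b encodes a uroplakin that mesothelial cells also make. Its level was 3.91 and 3.98 RPKM in αKOγKO hearts, 4.71 and 4.36 RPKM in αHetγKO hearts, 2.10 and 5.95 RPKM in αKOγWT hearts, and 6.51 and 4.28 RPKM in αHetγWT hearts. Each αKOγKO value was below each αHetγWT value, and the αKOγWT pair spanned nearly the whole range. The log2 difference between αKOγKO and αHetγWT was -0.57 ± 0.40 (95% confidence interval -1.48 to 0.34; edgeR adjusted p = 0.284), and it was -0.25 without αHetγWT replicate 1 and -0.83 without αHetγWT replicate 2.

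Tbx18 encodes a T-box factor of the epicardium that mural cells and the sinus node also use. Its level was 2.85 and 2.69 RPKM in αKOγKO hearts, 2.00 and 2.04 RPKM in αHetγKO hearts, 1.94 and 2.16 RPKM in αKOγWT hearts, and 2.13 and 1.93 RPKM in αHetγWT hearts. Both αKOγKO libraries were above the other 6, as was so for 34.8% of all tested genes in RPKM. The log2 difference between αKOγKO and αHetγWT was 0.32 ± 0.12 (95% confidence interval 0.04 to 0.61; edgeR adjusted p = 0.067), short of the threshold after adjustment. It passed in 3 of 18 alternative settings, which were the upper-quartile scaling (0.37, edgeR adjusted p = 0.0407) and the 2 fits to RPKM (limma adjusted p = 0.0262 and 0.0348). In αKOγKO hearts the edgeR factors were 1.05 and 1.08, against 0.966 to 0.997 in the other libraries, so RPKM places αKOγKO libraries slightly higher than the scaled counts do.

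Wt1 encodes a zinc-finger factor of the epicardium. Its level was 2.97 and 2.95 RPKM in αKOγKO hearts, 2.78 and 3.18 RPKM in αHetγKO hearts, 2.38 and 2.56 RPKM in αKOγWT hearts, and 2.75 and 3.13 RPKM in αHetγWT hearts, and the αKOγKO values lay between the 2 αHetγWT values. αKOγKO hearts differed from αHetγWT hearts by a log2 value of -0.11 ± 0.14 (95% confidence interval -0.43 to 0.20; edgeR adjusted p = 0.54). In RPKM, 3 of the 9 genes (Tcf21, Meox1 and Tbx18) had both αKOγKO libraries above the other 6 and 0 had both below. Over all tested genes 34.8% were above and 18.3% below.

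The second question was whether loss of a single receptor gave the same picture. It did not reach the threshold for any of the 9 genes. In αHetγKO hearts 0 of the 9 passed against αHetγWT, where 0.00663% of all tested genes passed, which is 1 gene. The log2 differences ran only from -0.26 (Upk3b) to 0.19 (Pdgfra). In αKOγWT hearts 0 of the 9 passed against αHetγWT, where 1.23% of all tested genes passed (0.743% higher and 0.491% lower), and the log2 differences ran from -0.41 (Upk3b) to 0.31 (Meox1). At an unadjusted p under 0.05 the count was 0 of 9 in both comparisons, and DESeq2, limma on RPKM and limma voom also called 0. Over all genes, 748 in αHetγKO and 2181 in αKOγWT hearts had an unadjusted edgeR p under 0.05. These 2 comparisons and the first share the 2 αHetγWT libraries.

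For Tcf21 the difference was -0.05 ± 0.13 in αHetγKO hearts (95% confidence interval -0.35 to 0.25) and 0.13 ± 0.13 in αKOγWT hearts (-0.17 to 0.43), both over αHetγWT. For Meox1 it was 0.18 ± 0.22 in αHetγKO hearts (-0.32 to 0.68) and 0.31 ± 0.22 in αKOγWT hearts (-0.19 to 0.81). The upper ends of these 4 intervals lie below the fitted αKOγKO differences of 1.12 and 1.70. Intervals for Upk3b and Msln were wide: in αKOγWT hearts over αHetγWT they ran from -1.33 to 0.50 for Upk3b and from -0.90 to 0.52 for Msln.

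**Figure D2:**
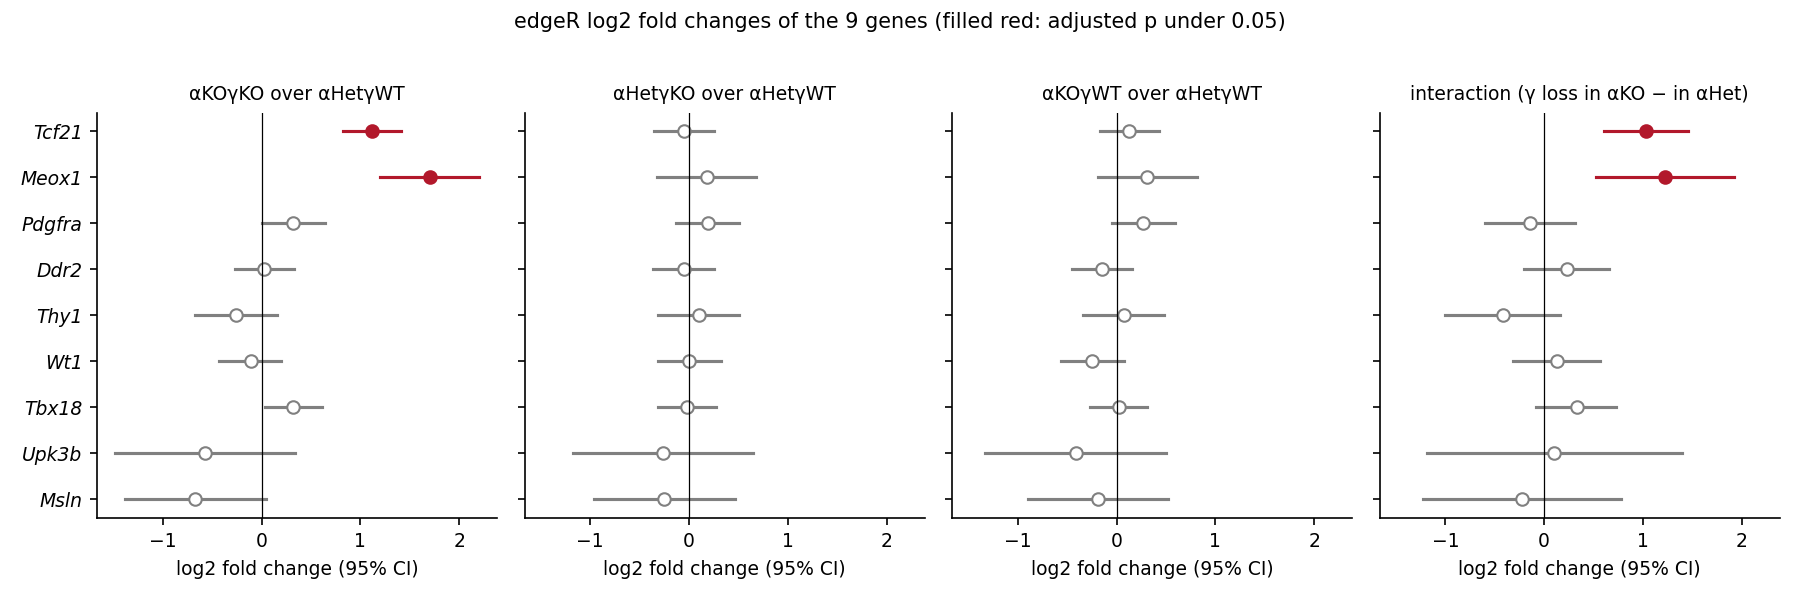
Log2 fold changes of the 9 genes fitted by edgeR (x axis) with 95% confidence intervals, in 4 comparisons. Filled red points passed an adjusted p of 0.05: Tcf21 and Meox1 in αKOγKO over αHetγWT and in the interaction, and 0 of 9 genes when 1 receptor was lost.

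αKOγKO hearts were also set against hearts with a single loss. Over αKOγWT, 2 of the 9 genes were higher and 0 lower, where 34.8% of all tested genes passed (16.6% higher and 18.2% lower): Tcf21 by 0.98 ± 0.13 (edgeR adjusted p = 0.000591) and Meox1 by 1.39 ± 0.22 (edgeR adjusted p = 0.00141). Over αHetγKO, 2 of the 9 were higher and 0 lower, where 38.3% of all tested genes passed (18.7% higher and 19.6% lower): Tcf21 by 1.17 ± 0.13 (edgeR adjusted p = 0.000213) and Meox1 by 1.53 ± 0.22 (edgeR adjusted p = 0.000809). Tcf21 and Meox1 passed in all 18 alternative settings of each. The other 7 genes differed by -0.48 (Msln) to 0.31 (Tbx18) from αKOγWT and by -0.41 (Msln) to 0.34 (Tbx18) from αHetγKO, none past the threshold. Tbx18 passed as higher in 2 settings over αKOγWT, the fits to RPKM (limma adjusted p = 0.0329 and 0.0436), and in 4 over αHetγKO, the fits to RPKM (limma adjusted p = 0.0267 and 0.0357), the upper-quartile scaling (edgeR adjusted p = 0.0404) and the filter on a mean of 1 RPKM (edgeR adjusted p = 0.0476). Without αKOγKO replicate 1, Thy1 passed as lower in both (-0.66, edgeR adjusted p = 0.00313, and -0.69, edgeR adjusted p = 0.00214). Without αKOγKO replicate 2, Pdgfra passed as higher in both (0.26 and 0.34), and Ddr2 over αKOγWT (0.35). Without αKOγWT replicate 1, Msln passed as lower than in αKOγWT (-0.94, edgeR adjusted p = 0.0073).

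The interaction asks whether cardiomyocyte ERRγ loss acted differently in hearts without ERRα than in hearts with 1 ERRα copy. It was positive for Tcf21 at 1.03 ± 0.19 (95% confidence interval 0.61 to 1.46; edgeR adjusted p = 0.00623) and for Meox1 at 1.22 ± 0.31 (95% confidence interval 0.52 to 1.92; edgeR adjusted p = 0.028). These were 2 of the 9 genes, with 0 negative, where 17.5% of all tested genes passed (6.77% positive and 10.7% negative). Tcf21 passed in all 17 alternative settings and Meox1 in 12. The Meox1 interaction missed the threshold without αHetγWT replicate 2 (0.90, edgeR adjusted p = 0.102), without αHetγKO replicate 1 (1.14, 0.115) or 2 (1.31, 0.076), and without αKOγWT replicate 1 (1.21, 0.0848) or 2 (1.24, 0.0701). Without αKOγKO replicate 1, Thy1 (-0.75, edgeR adjusted p = 0.00934) and Pdgfra (-0.40, edgeR adjusted p = 0.0349) passed as negative.

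The order of levels differed at the top. In αKOγKO hearts Meox1 (41.9 ± 11.2 RPKM, SD, n = 2) and Tcf21 (37.5 ± 5.88) led, with ranges that overlapped each other, followed by Pdgfra (16.7 ± 3.69), Thy1 (9.67 ± 2.75), Ddr2 (6.18 ± 1.10), Msln (4.31 ± 0.45), Upk3b (3.94 ± 0.0463), Wt1 (2.96 ± 0.0123) and Tbx18 (2.77 ± 0.113). Meox1 over Tcf21 was 1.20 and 1.02 within the αKOγKO libraries and 0.648 to 0.94 in the other 6, so Meox1 was the higher of the pair in αKOγKO libraries and Tcf21 in all others. Below the leading pair, the ranges of neighbours in the order did not overlap. In αHetγWT hearts Tcf21 led (15.9 ± 1.70 RPKM, SD, n = 2), followed by Pdgfra (12.3 ± 0.113), Meox1 (11.8 ± 3.26) and Thy1 (10.6 ± 0.468), then Msln (6.29 ± 0.926), Ddr2 (5.57 ± 0.092), Upk3b (5.39 ± 1.57), Wt1 (2.94 ± 0.265) and Tbx18 (2.03 ± 0.142). Pdgfra and Meox1, Meox1 and Thy1, and Ddr2 and Upk3b had overlapping ranges in αHetγWT hearts. Wt1 above Tbx18 was the order in all 8 libraries.

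Ratios taken within a library do not depend on its depth. Tcf21 over Pdgfra was 2.15 and 2.36 in αKOγKO hearts and 1.02 to 1.38 in the other 6 libraries, and Meox1 over Pdgfra was 2.58 and 2.41 in αKOγKO hearts and 0.777 to 1.14 in the others. Thy1 over Pdgfra went the other way, at 0.601 and 0.548 in αKOγKO hearts and 0.736 to 0.882 in the others. Ddr2 over Pdgfra, at 0.36 and 0.383 in αKOγKO hearts, lay inside the range of the others (0.323 to 0.46). The fibroblast markers thus did not keep a fixed proportion to one another in αKOγKO hearts. The ratios of Tcf21 and Meox1 to Pdgfra largely restate the higher levels of these 2 genes and are not a separate result.

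The ratios of epicardial genes to Tcf21 were lower in αKOγKO hearts. Tcf21 itself was 2.17-fold higher there than in αHetγWT hearts, so these ratios are not a separate result on the epicardial genes. Wt1 over Tcf21 was 0.0713 and 0.0886 in αKOγKO hearts and 0.137 to 0.207 in the other 6 libraries, and Msln over Tcf21 was 0.111 and 0.12 against 0.196 to 0.473. Between the epicardial transcription factors, Tbx18 over Wt1 was 0.96 and 0.911 in αKOγKO hearts and 0.618 to 0.843 in the others. Upk3b over Msln was 0.844 and 0.995 in αKOγKO hearts, overlapping the 0.616 to 0.937 of the others. Summed over members, the 5 fibroblast genes came to 129 and 94.5 RPKM in αKOγKO hearts and 52.3 to 64.9 RPKM in the others. This higher sum is carried by Tcf21 and Meox1 and is not a separate result, as Pdgfra, Ddr2 and Thy1 did not pass. The 4 epicardial genes summed to 14.4 and 13.6 RPKM in αKOγKO hearts and 9.83 to 18.3 RPKM in the others.

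**Figure D3:**
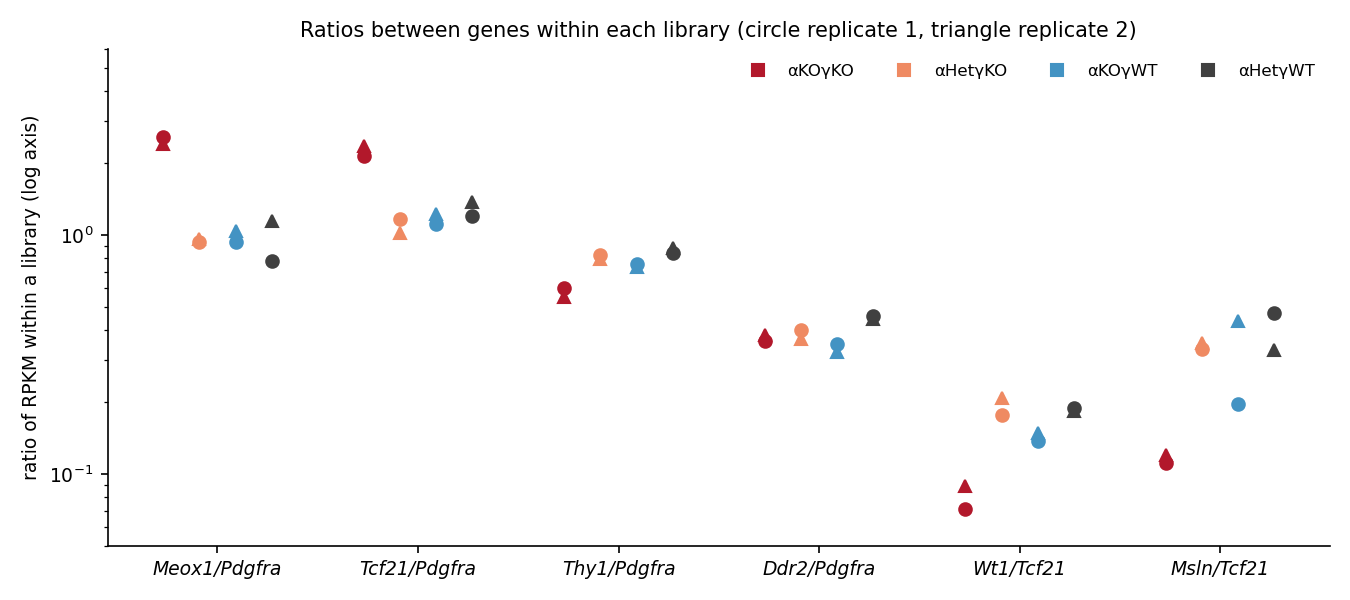
Ratio of 2 genes' RPKM within each library (y axis, log scale), for 6 pairs (x axis); colours are genotypes, circles replicate 1 and triangles replicate 2. Meox1 and Tcf21 over Pdgfra are highest in both αKOγKO libraries (2.15 to 2.58), and Thy1 over Pdgfra, Wt1 over Tcf21 and Msln over Tcf21 are lowest there.

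The 2 αKOγKO libraries differed in the fibroblast genes. The log2 CPM of replicate 1 minus replicate 2 was 0.62 for Thy1, 0.59 for Meox1, 0.49 for Pdgfra, 0.40 for Ddr2 and 0.35 for Tcf21, so all 5 were higher in replicate 1, while the median size of this difference over all tested genes was 0.19. It was 0.24 for Msln, 0.12 for Tbx18, 0.04 for Wt1 and 0.01 for Upk3b. The signed median over all tested genes was 0.01. Of the other lists, 20 of 23 other fibroblast genes, 12 of 16 activation genes, 10 of 10 macrophage markers and 8 of 8 cell cycle genes were higher in αKOγKO replicate 1. So were 15 of 19 other epicardial and mesothelial genes, 7 of 8 endothelial, 6 of 6 adipocyte, 6 of 9 mural and 3 of 4 lung markers. For the PDGF genes and for the collagen receptors it was 4 of 6 each. Lower counts were found for neuron (0 of 7), Schwann cell (1 of 6), cardiomyocyte (2 of 8), atrial (2 of 6) and T cell markers (2 of 5). Relatives of the transcription factors had 3 of 10 and partners of WT1 had 4 of 12. Replicate 1 is also the library with high Xist reads and replicate 2 the one with high Fos and Fosb reads. The part of pool composition, RNA handling or cell content in this difference was not tested.

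Within genotypes the fibroblast surface genes moved together. Taking each library's deviation from its genotype mean in log2 CPM, r was 0.99 for Pdgfra and Thy1, 0.93 for Ddr2 and Thy1 and 0.92 for Pdgfra and Ddr2. Over all 8 libraries, without removing the genotype means, the same pairs had r of 0.38, 0.39 and 0.48. For Tcf21 and Meox1 it was 0.92 within genotypes and 0.98 across all 8 libraries. Tcf21 and Thy1 had 0.84 within genotypes and -0.50 across all 8 libraries. Upk3b and Msln had 0.97 within genotypes and 0.91 across all 8 libraries. Tcf21 and Tbx18 had 0.14 within genotypes and 0.90 across all 8 libraries, so what they share across libraries is the αKOγKO level. Each r is a description of 8 libraries, and values from 1 library share its RNA pool and depth. With 2 libraries per genotype the deviations mirror each other, so a within-genotype r rests on 4 independent values, of which the αKOγKO pair is the largest for Pdgfra, Ddr2 and Thy1.

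The mesothelial genes Upk3b and Msln differed most between the 2 αKOγWT libraries. αKOγWT replicate 1 had 134 reads of Upk3b and 228 of Msln, against 372 and 495 in αKOγWT replicate 2, a log2 difference of -1.52 and -1.17. Replicate 1 was the lowest library of all 8 for both genes, and replicate 2 was the highest of all 8 for Msln (7.55 RPKM). The other mesothelial genes went with Upk3b and Msln. Lrrn4, a mesothelial surface protein and 1 of the 3 genes whose pattern was most like Upk3b, had 42 reads in αKOγWT replicate 1 and 144 in replicate 2. Of 19 other epicardial and mesothelial genes 17 were lower in replicate 1, with a median log2 difference of -0.92. Over all tested genes the median of this difference was -0.01 and its median size 0.14. Wt1 (-0.13) and Tbx18 (-0.18) differed far less between these 2 libraries.

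Adipocyte markers were also low in αKOγWT replicate 1. The 6 adipocyte markers summed to 2.61 RPKM in αKOγWT replicate 1, 45.3 RPKM in αKOγWT replicate 2 and 39.6 to 143 RPKM in the other 6 libraries, and all 6 had a lower CPM in replicate 1. Scgb1a1, a secreted protein of airway cells that makes up most of the lung list, had 12 reads in αKOγWT replicate 1 and 279 to 2279 in the other 7 libraries, whereas Ager, another lung marker, had 92 reads there and 54 to 96 elsewhere, and Sftpc and Sftpb had 0 to 6 reads in every library; these were named after their values were seen. All 6 atrial markers were also lower in αKOγWT replicate 1 (sums of 4330 and 7230 RPKM in replicates 1 and 2). The adipocyte markers did not separate αKOγKO from αHetγWT: 0 of 6 passed, with sums of 55.5 to 89.7 RPKM in αKOγKO hearts and 48.5 to 143 RPKM in αHetγWT hearts. Whether the amount of surface tissue left on the hearts set the Upk3b and Msln levels was not tested. Over αKOγWT, the αKOγKO log2 difference of Upk3b was -0.16 with both αKOγWT libraries, -0.73 without αKOγWT replicate 1 and 0.80 without αKOγWT replicate 2. That of Msln was -0.48, -0.94 and 0.23 in the same order. The sign for both genes in this comparison thus depends on which αKOγWT library is kept.

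**Figure D4:**
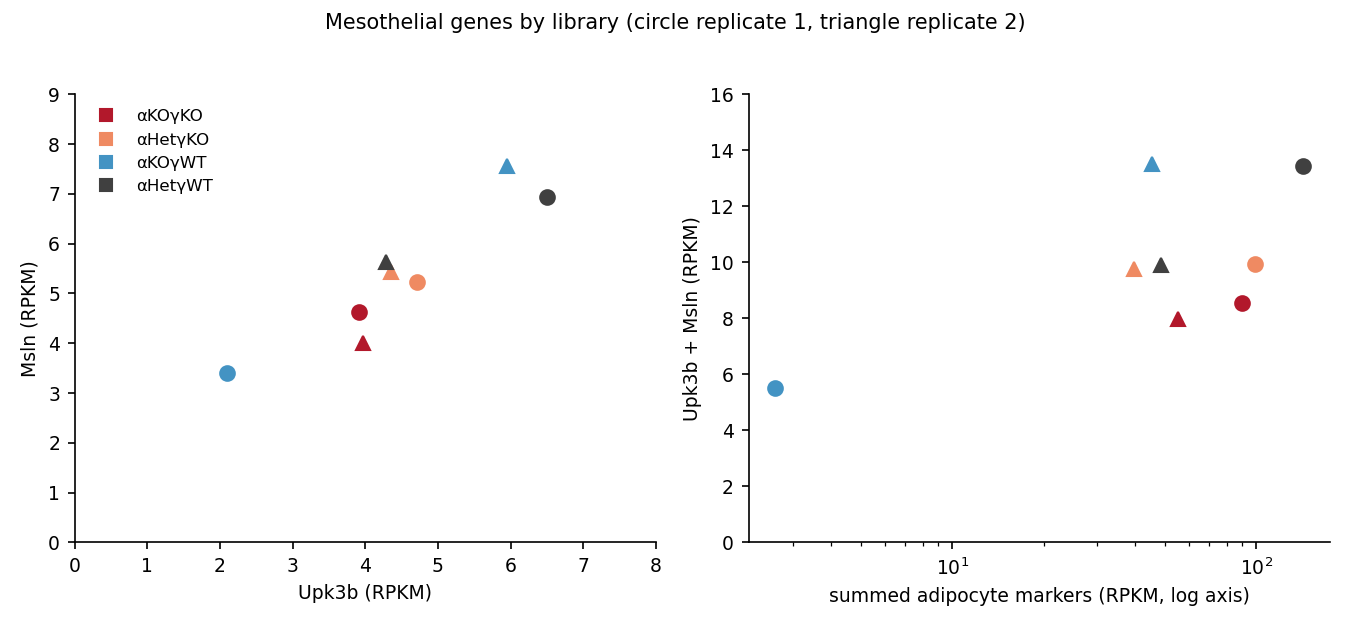
Left, Msln against Upk3b in RPKM; right, the sum of Upk3b and Msln in RPKM (y axis) against the summed RPKM of 6 adipocyte markers (x axis, log scale); each point is a library, circles replicate 1 and triangles replicate 2. αKOγWT replicate 1 is lowest in Upk3b (2.10), Msln (3.40) and adipocyte markers (2.61).

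The other genes of the same cells and pathways were read from lists. Among 23 further genes of fibroblast identity, 14 were higher and 2 lower in αKOγKO than in αHetγWT hearts, with a median log2 difference of 0.51, against 20.7% higher, 21.5% lower and a median of 0.01 over all tested genes. Named by smallest adjusted p, these were S100a4, a calcium-binding protein also found in leukocytes (2.50 ± 0.22, edgeR adjusted p = 5.01e-05), Osr1, a zinc-finger factor of mesenchyme (1.42 ± 0.19, 0.000462), Scara5, a ferritin receptor of resident fibroblasts, which was lower (-1.26 ± 0.17, 0.000482), and Col1a1, the main chain of type I collagen (1.13 ± 0.16, 0.000702). A further 7 did not pass and are named after their values were seen. They were Dcn (0.17 ± 0.10), Lum (0.29 ± 0.14), Htra3 (0.05 ± 0.10), Gsn (-0.04 ± 0.16), Prrx1 (-0.17 ± 0.08), Twist1 (0.51 ± 0.32) and Twist2 (0.57 ± 0.27). The count of higher genes was 9 without αHetγWT replicate 1. Of 16 genes of fibroblast activation, 15 were higher and 1 lower, with a median of 1.99, beside the same shares of all tested genes: Acta2, smooth muscle actin, by 2.12 ± 0.14 (edgeR adjusted p = 8.85e-06), Scx, a tendon and matrix transcription factor, by 2.94 ± 0.20 (1.03e-05), Sfrp1, a secreted Wnt modulator, by 1.07 ± 0.08 (1.99e-05) and Cilp, a matrix protein, by 3.50 ± 0.32 (6.18e-05). The lower one, named after its value was seen, was Fap, the fibroblast activation protease (-0.71 ± 0.18, edgeR adjusted p = 0.0126). Acta2 had 170852 and 131420 reads in αKOγKO hearts and 25721 to 60870 in the other 6 libraries.

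Markers of other cell types are given beside the 20.7% higher and 21.5% lower of all tested genes. In αKOγKO hearts over αHetγWT, 0 of 8 endothelial markers were higher and 6 lower, 0 of 8 cardiomyocyte markers higher and 5 lower, 2 of 10 macrophage markers higher and 0 lower, 3 of 9 mural markers higher and 4 lower, 3 of 6 atrial markers higher and 0 lower, 0 of 6 Schwann cell markers passed, and 8 of 8 cell cycle genes were higher. Summed cardiomyocyte and endothelial markers were lower in both αKOγKO libraries than in the other 6 (371 to 378 RPKM against 450 to 528 RPKM for the endothelial sum). Their part in the levels of Tcf21 and Meox1 was not tested.

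With 1 receptor lost, 1 gene of the fibroblast lists passed the test. In αHetγKO hearts over αHetγWT, 0 of 23 identity genes and 0 of 16 activation genes passed edgeR's test, where 0.00663% of all tested genes passed. The list medians were 0.18 and 0.21, and Acta2 had 1.11 ± 0.14 (edgeR adjusted p = 0.097). At an unadjusted edgeR p under 0.05 the list counts were 1 and 3, beside 748 of all 15076 tested genes, and DESeq2 called 0 and 1. In αKOγWT hearts over αHetγWT, 0 of 23 and 1 of 16 passed (Acta2, 1.11 ± 0.14, edgeR adjusted p = 0.00905), where 1.23% of all tested genes passed. The list medians there were 0.24 and 0.25. The unadjusted counts were 6 and 4, beside 2181 of all 15076 tested genes, and DESeq2 called 0 and 3. The median over all tested genes was 0.00 in both comparisons. Summed activation genes stood at 3570 and 2550 RPKM in αKOγKO hearts and 1360 and 1240 RPKM in αHetγKO hearts. They stood at 1350 and 1250 RPKM in αKOγWT hearts and 699 and 678 RPKM in αHetγWT hearts. Acta2 leads this sum, with 1140 and 986 RPKM in αHetγKO, 1090 and 1020 RPKM in αKOγWT and 505 and 474 RPKM in αHetγWT hearts. It encodes smooth muscle actin, and which cells of the heart carried its reads was not tested.

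**Figure D5:**
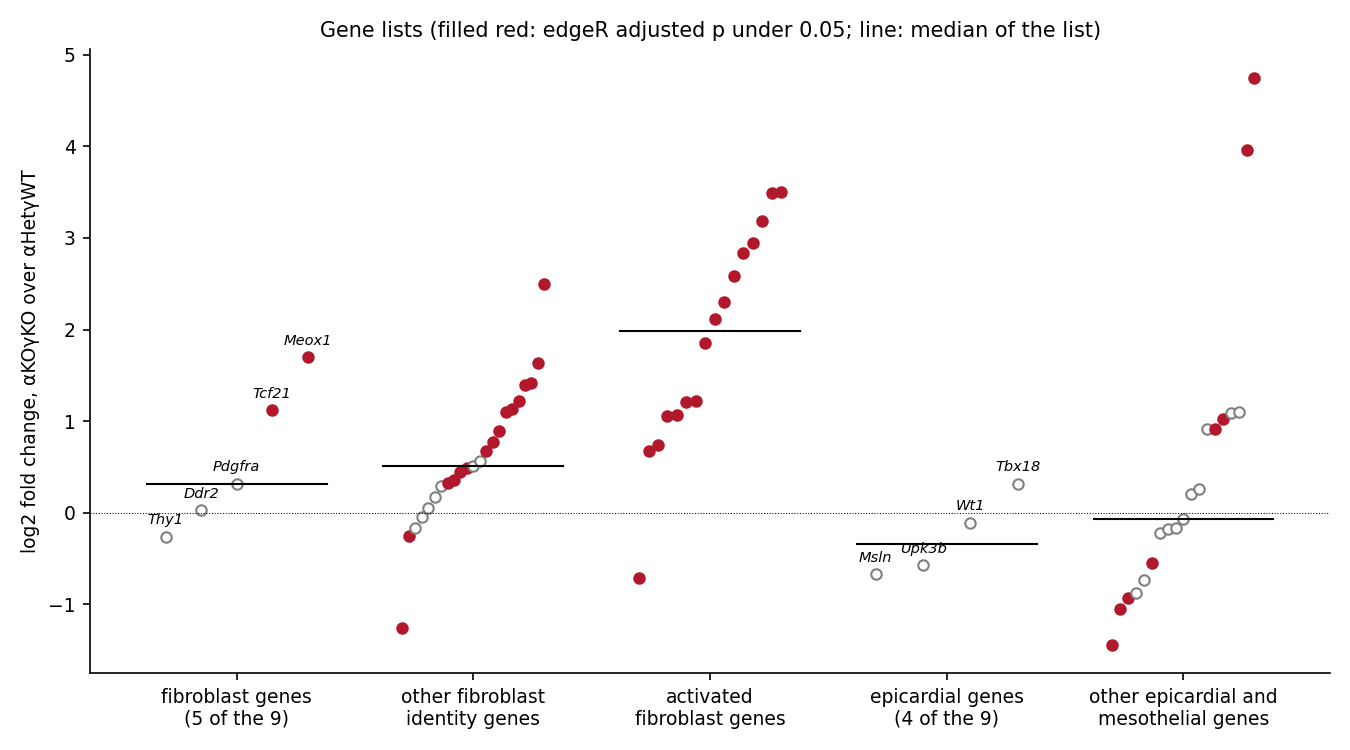
Log2 fold change of αKOγKO over αHetγWT (y axis) for each tested gene of 5 lists, ordered within a list by size; filled red points passed an edgeR adjusted p of 0.05 and lines are list medians. The activation list has a median of 1.99 and 15 of 16 genes higher, and the other epicardial list a median of -0.07 with 4 genes higher and 4 lower.

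The other epicardial and mesothelial genes had no common direction. Of 19 tested (Muc16 was not listed), 4 were higher and 4 lower in αKOγKO than in αHetγWT hearts, with a median of -0.07, a count near the shares of all tested genes (20.7% higher and 21.5% lower). The higher ones with the smallest adjusted p were the keratins of simple epithelia Krt18 (4.75 ± 0.36, edgeR adjusted p = 1.93e-05) and Krt8 (3.96 ± 0.56, 0.000688) and the membrane glycoprotein Gpm6a (1.02 ± 0.17, 0.00178), and Podxl, a sialomucin of mesothelium that endothelium also carries, was lower (-1.05 ± 0.08, 2.62e-05). Krt18 had 3317 and 1984 reads in αKOγKO hearts and 62 to 226 in the other 6 libraries, whereas Lrrn4, found in mesothelium, had 118 and 78 reads in αKOγKO hearts and 42 to 161 in the others. The keratins are not restricted to mesothelium, and the mesothelial genes Upk3b, Msln and Lrrn4 did not pass the test (Lrrn4 -0.73 ± 0.54, edgeR adjusted p = 0.317).

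Of the PDGF ligands and receptors other than Pdgfra, 3 of 6 were higher and 0 lower in αKOγKO over αHetγWT, where 42.2% of all tested genes passed in either direction, so nothing is read from so short a list. The ligand genes Pdgfa (0.50 ± 0.13, edgeR adjusted p = 0.0135) and Pdgfc (0.78 ± 0.25, 0.0325), whose products bind PDGFRα, passed, as did the receptor-like gene Pdgfrl (1.42 ± 0.19, 0.000527). Pdgfb (0.16 ± 0.12), Pdgfd (-0.28 ± 0.26) and the mural receptor gene Pdgfrb (-0.19 ± 0.11) did not pass. Of 6 collagen receptors other than Ddr2, 3 were higher and 1 lower, against the same 42.2% of all tested genes: Ddr1, the epithelial discoidin receptor (0.59 ± 0.09, edgeR adjusted p = 0.00121), and the integrin chains Itga1 (0.86 ± 0.22, 0.0141) and Itgb1 (0.59 ± 0.11, 0.00261) were higher, Itga10 was lower (-0.67 ± 0.14, 0.0054), and Itga2 (-0.42 ± 0.41) and Itga11 (0.76 ± 0.34) did not pass.

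Of 10 tested relatives of the transcription factors, 1 was higher, 5 were lower and 4 did not pass in αKOγKO over αHetγWT, with a median of -0.47, where 20.7% of all tested genes were higher and 21.5% lower. Meox2, the other member of the Meox1 family and a factor of endothelium, was lower (-0.99 ± 0.10, edgeR adjusted p = 8.21e-05), as were Tcf15, a basic helix-loop-helix factor of somites and heart endothelium (-1.80 ± 0.15, 3.71e-05), and Tbx3, a T-box factor of the conduction system (-0.82 ± 0.12, 0.000773), while Tbx20, a T-box factor of cardiomyocytes, was higher (0.74 ± 0.10, 0.00064). Among 12 partners of WT1 and epicardial signals, 3 were higher and 2 lower, with a median of 0.09, again near the 42.2% of all tested genes that passed. Named by adjusted p, they were Snai1, a factor of epithelial-to-mesenchymal transition (0.99 ± 0.22, edgeR adjusted p = 0.00649), Gata4 (0.53 ± 0.14, 0.0136) and Basp1, a corepressor of WT1 (0.77 ± 0.22, 0.0189), which were higher, and Tgfbr3, a TGFβ co-receptor that the epicardium needs (-0.52 ± 0.10, 0.00281), which was lower.

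The genes most like each member over the 8 libraries were found by Pearson's r of log2 CPM. For Tcf21 they were Myo9b, Nop58 and Rrbp1 (r = 0.995 for each), and 591 genes exceeded 0.95. For Meox1 they were Cnpy3 (0.993), Fgfr1 (0.993) and Rps7 (0.992), with 488 genes over 0.95, and Tbx18 was like Utp15 (0.985) and Tm9sf4 (0.985), with 122. Likeness to these 3 genes is likeness to the αKOγKO step. Pdgfra was most like Col15a1 (0.988), Clic1 (0.978) and Apbb1ip (0.976), Ddr2 most like Amotl1 (0.977), Cd59b (0.968) and Ston1 (0.966), and Thy1 most like Vash1 (0.986), Pcsk6 (0.982) and Gm14327 (0.971), with 9, 8 and 16 genes over 0.95. Wt1 had only Bbc3 (0.973) over 0.95, before Hoxb2 (0.925) and Zfp418 (0.916). Upk3b was most like Ccdc138 (0.962), Clns1a (0.96) and Lrrn4 (0.952), and Msln most like Ttc36 (0.958), Hbb-b1 (0.955) and Hbb-bs (0.951), so of the genes named here for likeness Lrrn4 is the one that the epicardial list also holds.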

How the data were processed

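RNA was sequenced as TruSeq paired-end libraries of 100 bases, 2 per genotype. The deposited tables give, per gene, uniquely assigned read counts, RPKM made by the authors from those counts, gene length and library total (recomputed to within 3.4e-14), and a coverage score, which was deposited and not used for results. The aligner, the counting program and strand use are not given in the sources used here; the build is mm10. Counts were tested with edgeR 4.0.16 (quasi-likelihood F-test, TMM, filterByExpr with a minimum count of 10 and total of 15) in R 4.3.3, with 1 mean per genotype over all 8 libraries, 4 residual degrees of freedom, and Benjamini-Hochberg adjustment over 15076 genes with a threshold of 0.05. Alternatives used DESeq2 1.42.0, limma 3.58.1 on log2 RPKM with a pseudocount of 1 or 0.1, other scaling and filters, a replicate block, and each library left out. The fits were tested on simulated data. Identifiers matched symbols for all but 44 genes.

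The members, lists and tests were chosen with earlier results of these data known. Named are the members, the PDGF and collagen receptor genes, up to 4 genes per list with the smallest adjusted p among those that passed, and the 3 genes most like each member, of which 1 is not reported here; others are named as chosen after their values were seen, or for the checks of the libraries (Esrra, Esrrg, Xist, Fos, Fosb). The p-values measure the spread between pooled libraries, of which there are 2 per genotype. Totals of 28.2 to 36.8 M reads gave each member at least 134 reads per library, and the labels give no batch.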

Additional observations from a re-analysis of the deposited data

Results flagged for a closer look

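The effect of cardiomyocyte ERRγ loss differed with ERRα status for 2 of the 9 genes by edgeR's interaction term. Over all tested genes 17.5% passed this term (6.77% positive and 10.7% negative). For Tcf21 the interaction was 1.03 on the log2 scale (edgeR adjusted p = 0.00623), since ERRγ loss went with a difference of 0.98 in αKO hearts (αKOγKO over αKOγWT) and -0.05 in αHet hearts (αHetγKO over αHetγWT). For Meox1 it was 1.22 (edgeR adjusted p = 0.028), from 1.39 in αKO hearts and 0.18 in αHet hearts. Tcf21 passed in all 17 alternative settings of the interaction and Meox1 in only 12. Both αKOγKO libraries were above the other 6 for both genes, as was so for 34.8% of all tested genes in RPKM. Each genotype has 2 libraries, too few for a check of a single sample standing apart within its group.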

How the results depend on the processing

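In αKOγKO over αHetγWT the count of members called lower went from 0 to 1 with DESeq2's Wald test and with only the 4 libraries compared (Msln, -0.66 in both, adjusted p = 0.0417 and 0.0285), and lay between 0 and 1 when each library was left out. The count called higher went from 2 to 4 with limma on log2(RPKM + 0.1), which added Pdgfra (0.42, adjusted p = 0.0465) and Tbx18 (0.43). Leaving out libraries gave 2 to 4 higher and 0 to 1 lower over αKOγWT, 0 to 1 lower over αHetγKO, and 1 to 2 positive and 0 to 2 negative interactions. Of member values that did not pass in either setting, 29 changed sign, 24 of them with a library left out; no value that passed did so. The replicate numbers did not pair the libraries (r of deviations -0.183 to 0.0884), and the replicate block gave 3089 higher and 3198 lower genes in αKOγKO over αHetγWT, where 3127 and 3237 passed without it, and changed no member's call; with the αKOγWT numbers crossed, an alternative added after seeing the data, αKOγWT over αHetγWT had 94 higher and 56 lower genes instead of 112 and 74. Fits to RPKM raised the share of higher calls in αKOγKO over αHetγWT from 49.1% to 63.2% (pseudocount 1) and 62.9% (0.1), with the median of all genes moved from 0.01 to 0.08 and 0.12. Over all genes, αHetγKO over αHetγWT had 1 call by edgeR, 23 higher and 18 lower by DESeq2, 13 and 15 by voom, and 63 and 42 with 4 libraries; αKOγWT over αHetγWT had 242 and 181 by DESeq2, 220 and 177 by voom, 221 and 181 with 4 libraries, and 11 to 370 higher with a library left out. αKOγKO over αHetγWT had 1895 higher without αHetγWT replicate 1, αKOγKO over αKOγWT 1491 with 4 libraries, and the interaction 1644 by limma and 336 to 1653 with a library left out. With a single library left in a genotype, it is assumed to vary like the others.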
